A study of Mus musculus with 18 samples.

Results

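The 40 genes described here are the core G2/M and mitosis genes of mouse tumour cells: the cyclin B and CDK1 engine, the mitotic kinases, the spindle assembly checkpoint, the substrates and partners of the anaphase-promoting complex, the chromosomal passenger complex, centromere proteins, mitotic kinesins, spindle and cytokinesis factors, and the transcription factor Foxm1. They were chosen by symbol, and the rule used no measured value, though earlier results of these data were known when they were chosen. All 40 were found among the 32015 gene symbols of each line's table, and all 40 passed the filter on low counts in both lines. The study measured polyA RNA by sequencing in 18 libraries from 2 mouse lines, Hepa1-6 (liver cancer) and B16 (melanoma). In each line there were 3 libraries of cells targeted with the guide sgNcor1-1, 3 with the guide sgNcor1-2, both labelled as Ncor1 knockout, and 3 of cells with the control guide sgCtrl, labelled WT. Each guide has replicate numbers 1 to 3. Ncor1 encodes a nuclear receptor corepressor, and the series concerns its part in DNA mismatch repair. No treatment is given. The labels do not say whether the cells of a guide were a pool or 1 clone, nor whether replicates were separate cultures. The p-values therefore speak of the variation among the libraries as sequenced, part or all of which may be technical.

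Cells enter mitosis when cyclin B and CDK1 become active. CDC25 phosphatases switch the pair on, and Aurora and Polo kinases assemble the spindle. The spindle assembly checkpoint holds the anaphase-promoting complex until every kinetochore is attached. CDC20 then directs that complex to destroy cyclin B and securin, and cytokinesis follows. Most of these genes are transcribed in waves: the DREAM complex, which holds MuvB with an E2F and an RB-family protein, keeps them low in resting cells, and MuvB with MYBL2 and then FOXM1 switches them on in G2. Their promoters are known for CCAAT boxes, bound by NF-Y, and for the cell cycle genes homology region (CHR), bound by MuvB. In bulk RNA, more cells in G2 and mitosis and more of these mRNAs per cell cannot be told apart.

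The promoters are shown because the members shared these elements, a property that the list did not use. RefSeq promoters on the GRCm38.p6 build, running from 250 bases before the start to 50 after it, were given for 34 of the 40 members, as 37 promoters. The letters CCAAT, or ATTGG on the other strand, were in 81.1% of the members' promoters, against 37.4% of all 32851 promoters of the same length. The CHR letters TTTGAA or TTCGAA, on either strand, were also in 81.1% of the members' promoters, against 19.2% of all promoters. Both elements stood together in 73.0% of the members' promoters and in 7.53% of all promoters, and in 7.11% of the promoters of protein-coding genes. At least 3 CCAAT boxes were in 27.0% of the members' promoters and in 3.37% of all. Of 41 CHR matches in the members' 37 promoters, 27 lay between 30 bases before and 50 bases after the start. Bub3, Ect2 and Prc1 have overlapping promoters, so their sites count once in each promoter. The share of matches at that position was not taken for all promoters. Birc5, Mad2l1, Nusap1 and Pttg1 held neither set of letters in this window. The 4 promoters printed here are those of Ccnb2, Hmmr, Aurka and Cenpa, which had smaller knockout p-values in Hepa1-6 than any other member with a promoter in the table and a match. Capitals mark the CCAAT boxes and the CHR letters, on either strand.
Ccnb2 (chr9:70421505-70421804, minus strand): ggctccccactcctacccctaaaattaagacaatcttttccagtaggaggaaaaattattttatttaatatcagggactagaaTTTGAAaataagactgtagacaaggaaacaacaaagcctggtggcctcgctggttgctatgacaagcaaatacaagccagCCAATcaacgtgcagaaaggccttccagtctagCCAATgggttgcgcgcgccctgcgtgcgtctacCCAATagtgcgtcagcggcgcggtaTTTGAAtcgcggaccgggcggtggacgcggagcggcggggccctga
Hmmr (chr11:40733388-40733687, minus strand): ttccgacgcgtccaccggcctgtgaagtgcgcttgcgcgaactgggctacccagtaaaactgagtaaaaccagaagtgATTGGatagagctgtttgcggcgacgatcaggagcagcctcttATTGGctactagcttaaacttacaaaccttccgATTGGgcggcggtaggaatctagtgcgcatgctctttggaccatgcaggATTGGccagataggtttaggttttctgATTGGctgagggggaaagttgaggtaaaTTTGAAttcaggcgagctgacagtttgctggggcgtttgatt
Aurka (chr2:172370521-172370820, minus strand): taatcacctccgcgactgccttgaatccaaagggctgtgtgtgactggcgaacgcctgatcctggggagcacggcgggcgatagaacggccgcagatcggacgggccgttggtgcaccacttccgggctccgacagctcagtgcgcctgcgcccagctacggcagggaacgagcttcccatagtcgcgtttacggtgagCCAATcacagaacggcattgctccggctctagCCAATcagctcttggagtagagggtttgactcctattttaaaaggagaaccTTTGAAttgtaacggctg
Cenpa (chr5:30666636-30666935, plus strand): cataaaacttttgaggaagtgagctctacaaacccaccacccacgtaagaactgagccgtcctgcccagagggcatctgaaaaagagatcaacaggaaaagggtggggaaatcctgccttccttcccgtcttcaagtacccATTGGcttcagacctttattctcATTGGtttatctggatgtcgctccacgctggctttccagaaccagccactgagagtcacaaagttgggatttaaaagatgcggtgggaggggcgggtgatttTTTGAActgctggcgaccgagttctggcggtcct
All 4 have a CHR within 33 bases after the start. Ccnb2 carries 3 CCAAT boxes upstream of it, at 87, 54 and 21 bases before the start, and a further CHR at 167 bases before the start. Hmmr carries 5 CCAAT boxes, Aurka 2 and Cenpa 2. A match is a description of the letters and not a binding site.

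The summed counts of the libraries were 17689324 to 30819681 in Hepa1-6 and 15663964 to 25263744 in B16. Ncor1 itself had 130.4 to 196.9 CPM (counts scaled to a common library size, with library composition taken into account) in the 6 Hepa1-6 knockout libraries, against 221.6 to 266.3 CPM in the 3 controls, without overlap, at a log2 fold change of -0.62 (SE 0.17, edgeR adjusted p = 0.223). In B16 it had 236.5 to 367 CPM in knockout libraries and 279.1 to 326.5 CPM in controls, with overlap (log2 fold change -0.06, SE 0.19, edgeR adjusted p = 1). The level of an edited mRNA does not measure the protein, so it does not check the labels in B16. Hepa1-6 libraries held Alb, Afp, Fgb and Hnf4a among 9 hepatocyte markers, above a mean of 1 CPM, while Apoa1, Apoa2, Apoh, Ttr and Serpina1a were not. The hepatocyte list summed to 386 to 807 CPM in knockout libraries and 395 to 486 CPM in controls. The melanocyte genes Tyrp1, Dct and Gpr143 were at 0 there. Of 7 fibroblast markers, Pdgfra and Dcn were above 1 CPM there, and the list summed to 707 to 1590 CPM in knockout libraries and 1170 to 1410 CPM in controls, with Lum and Thy1 at 0. Of 7 immune cell markers, Cd68 and Csf1r were above 1 CPM in Hepa1-6, and the list summed to 15.6 to 106 CPM in knockout libraries and 33.6 to 96.7 CPM in controls. Mitf was the 1 melanocyte marker above 1 CPM there, and 0 of 5 endothelial markers were. All 9 melanocyte markers were above 1 CPM in B16, where Alb, Afp, Fgb and Serpina1a were at 0. B16 also held the fibroblast markers Col1a1, Pdgfra and Dcn (list sum 12.2 to 39.9 CPM in knockout libraries, 15.2 to 35.7 CPM in controls), the immune marker Cd68 (list sum 0.421 to 4.19 CPM in knockout libraries, 0.181 to 1.73 CPM in controls) and the endothelial marker Pecam1 (list sum 1.99 to 8.34 CPM in knockout libraries, 2.21 to 7.54 CPM in controls) above a mean of 1 CPM, with Ptprc, Cd3e, Itgam, Cdh5, Kdr and Emcn at 0. The part of these lists in the results was not tested. The B16 library sgNcor1-1 1 stood apart: its scaling factor was 0.792, against 0.978 to 1.091 in the other 8. It had the fewest genes detected, 13982, and also the smallest summed count of that line, 15663964. The part of depth in the number of genes detected was not tested.

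In Hepa1-6, all 40 genes averaged higher in the knockout libraries than in the controls, by a median log2 fold change of 0.75 (range 0.17 to 1.42), against 0.02 over all 12458 genes tested. None passed the test: edgeR's quasi-likelihood fit with adjustment over all genes called 0 of the 40, beside 0.201% of all genes, and the lowest adjusted p was 0.288. Taking p under 0.05 without adjustment, 6 of the 40 passed (15%), against 11.1% of the genes tested. DESeq2 also called 0 of the 40, beside 2% of its genes, with 16 of the 40 at that unadjusted threshold, beside 8.7% of its genes. With the replicate number as a block 0 of the 40 were called, beside 4.21% of all genes. The excess sat in the libraries numbered 1. Summed over the 40 genes, levels were 7642, 3754 and 3017 CPM in sgNcor1-1 numbers 1 to 3 and 7222, 3780 and 3099 CPM in sgNcor1-2, against 1999, 3133 and 3588 CPM in sgCtrl. Thus the knockout libraries numbered 1 were the highest of the 9, and the control numbered 1 was the lowest. The 4 replication-dependent histone mRNAs measured, listed to follow RNA quality, ran otherwise: their median log2 difference from the control of the same number was -0.41 with sgNcor1-1 and -0.24 with sgNcor1-2 in number 1, 0.88 and 0.84 in number 2, and 0.33 and 0.55 in number 3. For the 13 mitochondrially encoded mRNAs it was -0.35 and 0.02 in number 1. The part of either list in the pattern was not tested.

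Within replicate number 1 of Hepa1-6, all 40 genes were above the control of the same number with both guides, at a median log2 difference of 1.87 with sgNcor1-1 (0.93 to 2.81) and 1.87 with sgNcor1-2 (1.00 to 2.81). Within number 2 the median was 0.32 for sgNcor1-1 (31 of 40 above the control) and 0.28 for sgNcor1-2 (33 of 40). Within number 3 it was -0.32 for sgNcor1-1 (5 of 40 above) and -0.29 for sgNcor1-2 (6 of 40). For 37 of the 40 genes, both knockout libraries numbered 1 lay above the other 7 libraries, and for 34 the control numbered 1 was the lowest of the 9. The share of all genes with either order was not counted, so neither count can be called particular to these genes. Without the libraries numbered 1, the median knockout difference of the 40 genes was -0.01, with 20 above 0 and 20 below. In that fit edgeR called 0 of them, and 3 had p under 0.05 before adjustment. No share of all genes is given for that fit, so the 3 are not read as a trait of these genes. The 2 guides share the 3 control libraries, and their medians were close, at 0.76 for sgNcor1-1 and 0.74 for sgNcor1-2.

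**Figure D1:**
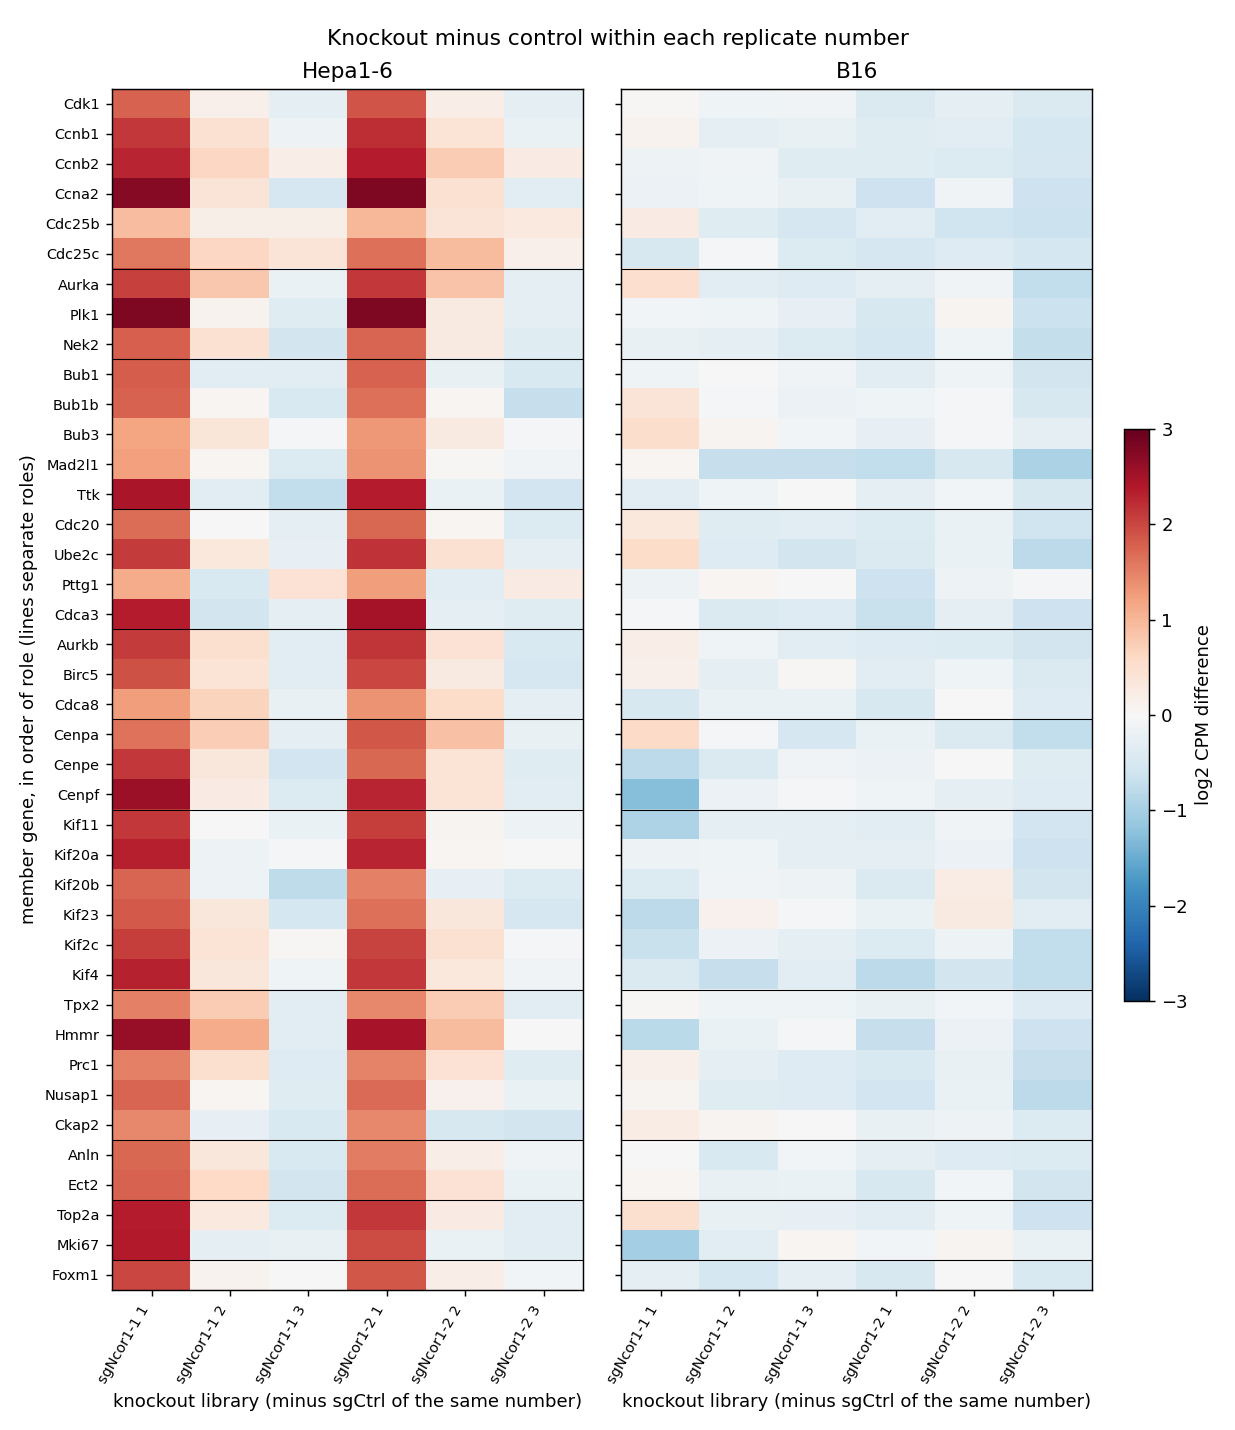
Log2 CPM difference of each of the 40 genes between a knockout library and the sgCtrl library of the same replicate number, for Hepa1-6 (left) and B16 (right); rows are genes in order of role, columns are guide and replicate number, and colour gives the difference. All 40 genes are above the control in both Hepa1-6 columns numbered 1, and most B16 squares are below 0.

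Among the CDK1 engine and its switches in Hepa1-6, the median log2 fold change was 0.92 over 6 genes, and 0 of the 6 were called. Ccnb2, a B-type cyclin, had 66.67, 27.46 and 28.19 CPM in sgNcor1-1 and 69.22, 30.17 and 29.07 CPM in sgNcor1-2, against 13.54, 17.72 and 24.51 CPM in sgCtrl. Every knockout library was above every control, at a log2 fold change of 1.17 (SE 0.41, edgeR adjusted p = 0.338). Cdc25c, a phosphatase that activates CDK1, likewise did not overlap, with 22.59, 21.46 and 19.52 CPM in sgNcor1-1 and 23.9, 27.07 and 16.7 CPM in sgNcor1-2, against 7.486, 13.92 and 14.97 CPM in sgCtrl (log2 fold change 0.85, SE 0.26, edgeR adjusted p = 0.288). Unlike Ccnb2, its knockout levels did not stand out in number 1. These 2 genes were the only members whose groups were apart, 2 of 40 beside 3.89% of all genes with knockout above control. Cdc25b, a phosphatase that acts on CDK1 at the centrosome, was at 142, 196.3 and 203.3 CPM in sgNcor1-1 and 148.6, 226.2 and 222.6 CPM in sgNcor1-2, against 74.35, 174 and 181.1 CPM in sgCtrl. It was lowest in number 1 within each of the 3 groups, unlike Ccnb2 and Cdk1, whose knockout levels were highest there, and the groups overlapped. Ccnb2, Cdc25b and Cdc25c were the 3 members above the control of the same number in all 6 pairs (3 of 40 beside 11.2% of all genes).

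Cdk1, the kinase itself, had 299.4, 132.4 and 113.9 CPM in sgNcor1-1 and 321.5, 137.8 and 112 CPM in sgNcor1-2, against 87.53, 119 and 137.2 CPM in sgCtrl. The groups overlapped, and knockout was above control in numbers 1 and 2 and below it in number 3 (log2 fold change 0.70, SE 0.41, edgeR adjusted p = 0.57). Ccna2, the S and G2 cyclin, had the largest fold change of the 40, 1.42 (SE 0.74, edgeR adjusted p = 0.519), and also a wide spread: 225.4, 49.61 and 32.78 CPM in sgNcor1-1 and 236.5, 51.68 and 36.75 CPM in sgNcor1-2, against 34, 37.8 and 46.84 CPM in sgCtrl. Its difference within number 1 was 2.73 with sgNcor1-1. With replicate numbers 2 and 3 alone it was 0.02.

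**Figure D2:**
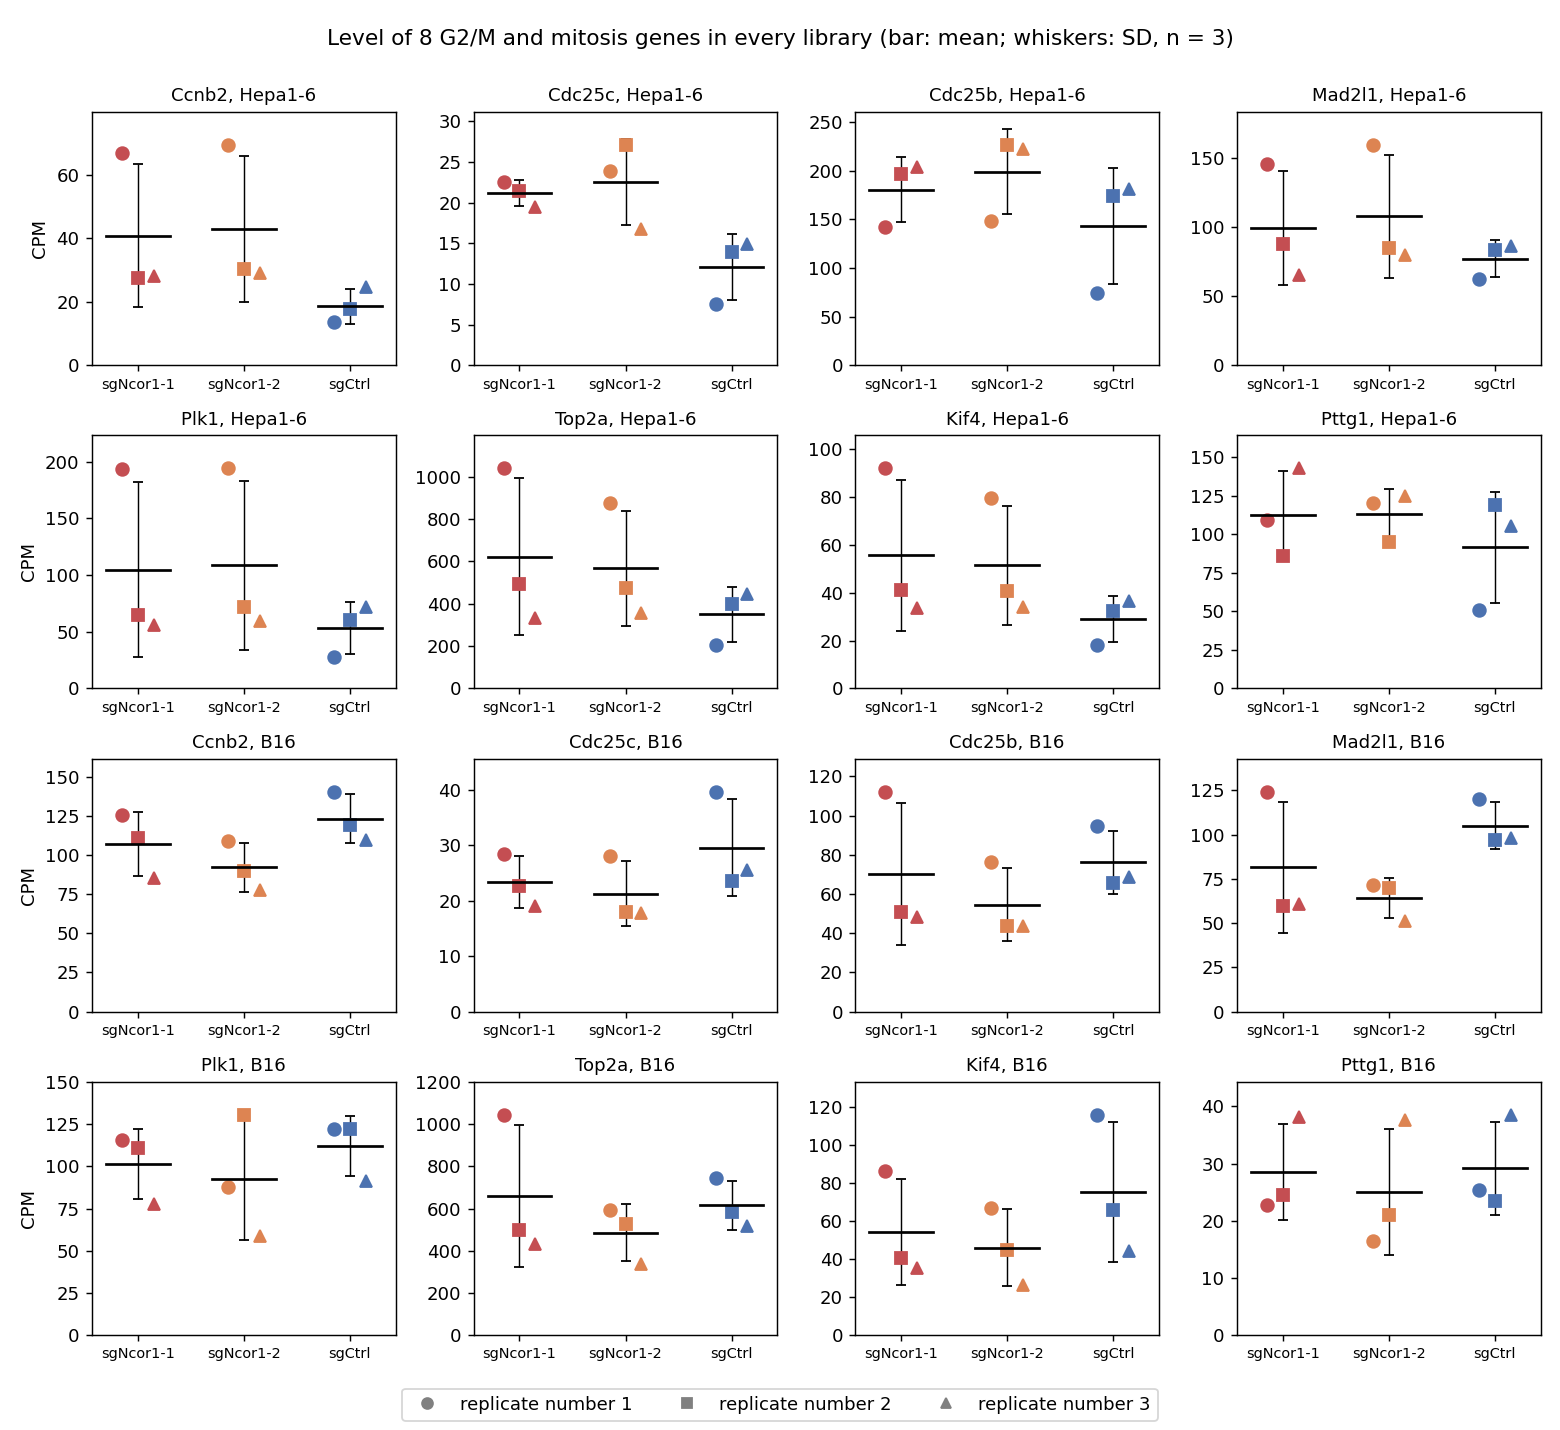
CPM (vertical axis, from 0) of 8 genes in each library of Hepa1-6 (upper 2 rows) and B16 (lower 2 rows), by guide; symbols give the replicate number, bars the mean and whiskers the SD (n = 3). In Hepa1-6, Plk1 stood at 193.4 and 193.9 CPM in the knockout libraries numbered 1, against 27.59 CPM in the control numbered 1, while numbers 2 and 3 lay close together.

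Of the mitotic kinases, Plk1, the Polo kinase of mitotic entry and spindle assembly, had 193.4, 64.91 and 56.07 CPM in sgNcor1-1 and 193.9, 72.16 and 59.19 CPM in sgNcor1-2, against 27.59, 60.37 and 71.95 CPM in sgCtrl. Both guides differed from the control by a log2 difference of 2.81 in number 1, the largest of the 40 in those libraries. In number 3 both were below it, by -0.36 and -0.28. Aurka, the centrosomal Aurora kinase, had 151, 116.4 and 85.24 CPM in sgNcor1-1 and 157.4, 120 and 81.63 CPM in sgNcor1-2, against 36.3, 66.78 and 98.41 CPM in sgCtrl. It was above the control in number 2 as well, by 0.80 and 0.85, and below it in number 3 (log2 fold change 0.82, SE 0.34, edgeR adjusted p = 0.419). Nek2, a kinase that separates centrosomes, had a log2 fold change of 0.58 (SE 0.36, edgeR adjusted p = 0.577).

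The 5 spindle assembly checkpoint genes had a median log2 fold change of 0.52 in Hepa1-6, and 0 of the 5 were called. Bub3, which brings BUB1 to kinetochores, had 298, 230.7 and 181.8 CPM in sgNcor1-1 and 320.6, 216.6 and 183.6 CPM in sgNcor1-2, against 130.8, 179.1 and 189.6 CPM in sgCtrl. The 2 knockout libraries numbered 3 fell inside the control range. Bub1 and Ttk, the checkpoint kinases, were below the control in both numbers 2 and 3: Ttk differed by -0.31 and -0.19 in number 2 and by -0.73 and -0.58 in number 3, against 2.44 and 2.35 in number 1. Mad2l1, which inhibits CDC20, had the smallest fold change of this group, 0.42 (SE 0.30, edgeR adjusted p = 0.639).

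The 4 partners and substrates of the anaphase-promoting complex had a median log2 fold change of 0.60. Ube2c, its ubiquitin-conjugating enzyme, had 244.3, 144.4 and 118.5 CPM in sgNcor1-1 and 254.3, 159.4 and 114.4 CPM in sgNcor1-2, against 56.87, 116.5 and 139.8 CPM in sgCtrl. It overlapped in number 3 only, where both knockout libraries were below the control of that number. Pttg1, the securin that holds separase, had another order from Ube2c: it was below the control in number 2 (-0.46 and -0.32) and above it in number 3 (0.44 and 0.24). Cdca3, a factor for mitotic entry, was above the control in number 1 by 2.35 and 2.49, and below it in numbers 2 and 3.

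In the chromosomal passenger complex, Aurkb, its kinase, had 124.7, 52.01 and 41.18 CPM in sgNcor1-1 and 130.2, 50.48 and 37.55 CPM in sgNcor1-2, against 29.28, 37.25 and 51.66 CPM in sgCtrl. Birc5 (survivin) and Cdca8 (borealin), its other members here, had log2 fold changes of 0.76 and 0.53, and 0 of the 3 were called. Of the centromere genes, Cenpa, the histone variant that marks centromeres, had a log2 fold change of 0.81 (SE 0.34, edgeR adjusted p = 0.427). Its levels were 58.84, 38.13 and 27.49 CPM in sgNcor1-1 and 68.31, 42.16 and 28.27 CPM in sgNcor1-2, against 18.77, 23.03 and 33.02 CPM in sgCtrl. Cenpe, a kinetochore motor, had 149.5, 86.26 and 56.38 CPM in sgNcor1-1 and 113.9, 90.62 and 64.43 CPM in sgNcor1-2, against 34.36, 68.74 and 83.54 CPM in sgCtrl, and the 2 libraries numbered 3 were below 2 of the controls.

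The 6 mitotic kinesins had a median log2 fold change of 0.88 in Hepa1-6. Kif11, which pushes spindle poles apart, had 188.7, 56.74 and 52.3 CPM in sgNcor1-1 and 181.1, 60.25 and 54.35 CPM in sgNcor1-2, against 43.02, 56.92 and 60.12 CPM in sgCtrl, so that numbers 2 and 3 lay within 0.20 of the control of the same number on the log2 scale. Kif2c, which removes tubulin from microtubule ends, had 101.6, 46.01 and 42.66 CPM in sgNcor1-1 and 98.94, 47.8 and 39.79 CPM in sgNcor1-2, against 24.1, 34.64 and 41.62 CPM in sgCtrl; 1 knockout library, sgNcor1-2 3, lay below the highest control (log2 fold change 0.91, SE 0.39, edgeR adjusted p = 0.43). Kif20b, a kinesin of cytokinesis, had the smallest of the 6 fold changes, 0.54. Among spindle factors, Hmmr, which binds microtubules and TPX2, had 196.7, 113.8 and 56.19 CPM in sgNcor1-1 and 179, 101.2 and 70.71 CPM in sgNcor1-2, against 31.95, 52.62 and 69.96 CPM in sgCtrl (log2 fold change 1.22, SE 0.44, edgeR adjusted p = 0.361). Within number 2 it was above the control by 1.11 and 0.94, the most of the 40 with sgNcor1-1. Tpx2, which activates AURKA on the spindle, was above the control in number 2 by 0.75 and 0.77, and below it in number 3 by -0.33 and -0.31. Ckap2, a spindle protein, had the smallest fold change of the 40, 0.17 (SE 0.32, edgeR adjusted p = 0.877).

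Of the cytokinesis genes, Anln, a scaffold of the contractile ring, had 405.8, 183.2 and 106 CPM in sgNcor1-1 and 355, 164.1 and 136 CPM in sgNcor1-2, against 123, 143.9 and 146.1 CPM in sgCtrl. Top2a, the topoisomerase that untangles sister chromatids, had 1040, 493.1 and 333.4 CPM in sgNcor1-1 and 875.4, 473.4 and 357.9 CPM in sgNcor1-2, against 202.9, 399.5 and 445.9 CPM in sgCtrl. Mki67, the coat of mitotic chromosomes and a common proliferation marker, was below the control in numbers 2 and 3 and above it in number 1 by 2.37 and 1.96. Foxm1, the transcription factor of many of these genes, had 212.3, 74.78 and 71.55 CPM in sgNcor1-1 and 193.9, 80.15 and 67.47 CPM in sgNcor1-2, against 52.87, 69.54 and 71.55 CPM in sgCtrl. Its numbers 2 and 3 lay within 0.20 of the control on the log2 scale (overall log2 fold change 0.85, SE 0.44, edgeR adjusted p = 0.518).

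In B16, the direction was the other way and the size smaller: 39 of the 40 genes averaged lower in the knockout libraries, by a median log2 fold change of -0.25 (range -0.59 to 0.02), and Bub3 was the 1 gene at or above 0. EdgeR called 0 of the 40, beside 0.0324% of all 12347 genes tested, with every adjusted p at 1 and 0 of the 40 with p under 0.05 before adjustment (2.36% of all genes). DESeq2 also called 0, beside 0.271% of its genes, and it too had 0 with p under 0.05 before adjustment (2.71% of its genes). In this line the replicate numbers pair the libraries by the rule given with the methods. With the number as a block, 0 of the 40 were called, 18 had p under 0.05 before adjustment, or 45%, against 8.05% of all genes, and the lowest adjusted p was 0.141. Without the library sgNcor1-1 1, which stood apart, the same blocked fit called 4 of the 40, all lower, beside 2.7% of all genes called and 1.45% called lower, and 26 of the 40 had p under 0.05 before adjustment, beside 18.2% of all genes. All 40 were then below 0, at a median of -0.31. That fit was added after the data were seen.

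The 4 genes called in that fit were the checkpoint gene Mad2l1, the chromokinesin Kif4, the phosphatase Cdc25b and Cdca3. Mad2l1 had 124.3, 59.84 and 60.55 CPM in sgNcor1-1 and 71.36, 69.85 and 51.1 CPM in sgNcor1-2, against 120.3, 96.84 and 98.07 CPM in sgCtrl. The 5 knockout libraries other than sgNcor1-1 1 were below every control. With that library and no block, the log2 fold change was -0.54 (SE 0.25, edgeR adjusted p = 1). The block with all libraries gave -0.57 (edgeR adjusted p = 0.342), and the block without that library -0.71 (SE 0.10, edgeR adjusted p = 0.0109). Kif4, which compacts chromosomes and builds the spindle midzone, had 86.33, 40.71 and 35.3 CPM in sgNcor1-1 and 67.07, 44.84 and 26.29 CPM in sgNcor1-2, against 116.1, 65.67 and 44.24 CPM in sgCtrl. Its groups overlapped, yet each knockout library was below the control of its number, and the blocked fit without sgNcor1-1 1 gave -0.61 (SE 0.11, edgeR adjusted p = 0.024). The same fit gave Cdc25b -0.45 (SE 0.09, edgeR adjusted p = 0.0396) and Cdca3 -0.49 (SE 0.10, edgeR adjusted p = 0.044). Cdc25b was at 112.2, 50.88 and 48.14 CPM in sgNcor1-1 and 76.1, 43.53 and 43.83 CPM in sgNcor1-2, against 94.76, 65.48 and 68.41 CPM in sgCtrl, and here, unlike in Hepa1-6, it was highest in number 1. Cdca3 was at 174.3, 135.5 and 110.8 CPM in sgNcor1-1 and 114.1, 151 and 92.76 CPM in sgNcor1-2, against 181.9, 184.1 and 143.7 CPM in sgCtrl.

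Across the 6 pairs of B16, 12 of the 40 genes were below the control of the same number every time, beside 6.91% of all genes: Ccnb2, Ccna2, Cdc25c, Nek2, Cdca3, Cenpe, Cenpf, Kif11, Kif20a, Kif2c, Kif4 and Hmmr. Kif2c was the 1 member with all knockout libraries below all controls (1.37% of all genes), at 45.14, 54.61 and 45.93 CPM in sgNcor1-1 and 53.87, 55.32 and 34.03 CPM in sgNcor1-2, against 71.14, 61.44 and 56.4 CPM in sgCtrl (log2 fold change -0.39, SE 0.19, edgeR adjusted p = 1). Hmmr had 98.74, 99.23 and 101.6 CPM in sgNcor1-1 and 108.8, 100.8 and 68.8 CPM in sgNcor1-2, against 174.2, 113.8 and 106.4 CPM in sgCtrl; the control numbered 1 was the highest of the 9 libraries. Kif11 had 123, 147.5 and 135.3 CPM in sgNcor1-1 and 187.6, 167.3 and 111.3 CPM in sgNcor1-2, against 232.5, 180.3 and 165.8 CPM in sgCtrl. Cdca8, of the chromosomal passenger complex, had 63.19, 72.59 and 68.07 CPM in sgNcor1-1 and 63.18, 82.68 and 59.89 CPM in sgNcor1-2, against 88.04, 82.55 and 77.91 CPM in sgCtrl, and 1 knockout library, sgNcor1-2 2, reached into the control range.

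The B16 difference was not equal between the guides or among the libraries, though both guides share the 3 controls. The median log2 fold change of the 40 genes was -0.14 with sgNcor1-1 and -0.35 with sgNcor1-2. With sgNcor1-2 all 40 genes were below 0. Taken number by number, from 1 to 3, sgNcor1-1 stood at a median of -0.07, -0.19 and -0.23, and sgNcor1-2 at -0.38, -0.16 and -0.55. Leaving out the control numbered 1 moved the median of the pooled comparison to -0.13, and 7 of the 40 were then above 0.

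The library sgNcor1-1 1 of B16 split the members. Against the control of the same number, Cenpf was at -1.27, Mki67 at -1.01, Kif11 at -0.92, Hmmr at -0.82, Cenpe at -0.79 and Kif23 at -0.79 on the log2 scale. Cenpa was at 0.58, Ube2c at 0.56, Bub3 at 0.53, Aurka at 0.51 and Top2a at 0.49. Cenpf, Mki67 and Cenpe have the 3 longest transcripts of the 40, and Cenpa has the shortest. Other genes ran against that order. Mad2l1, the next longest at 7557 bases, was at 0.05, and Top2a has 5221 bases. Cdca8, with 1626 bases, and Cdc25c, with 1945, were both at -0.48. Across the 40 genes, Spearman's rho between this difference and transcript length was -0.35, and over 11648 genes it was -0.25. The same values for sgNcor1-2 1 were 0.16 and 0.17. A relation of this size over the 40 genes was not limited to that library: rho was -0.32 in B16 sgNcor1-1 2 (0.02 over all genes), -0.36 in Hepa1-6 sgNcor1-1 3 (-0.17 over all genes) and -0.29 in Hepa1-6 sgNcor1-2 2 (-0.29 over all genes). These are correlations across genes of 2 libraries that share a control, and genes are not replicates. In sgNcor1-1 1 the mitochondrially encoded mRNAs, listed to follow RNA quality, stood at a median difference of -1.54 (12 of 13 below 0), and the 5 replication-dependent histone mRNAs measured had a median of 1.01 (5 of 5 above 0), against -0.13 and -0.51 in sgNcor1-2 1. Their part in the split was not tested.

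**Figure D3:**
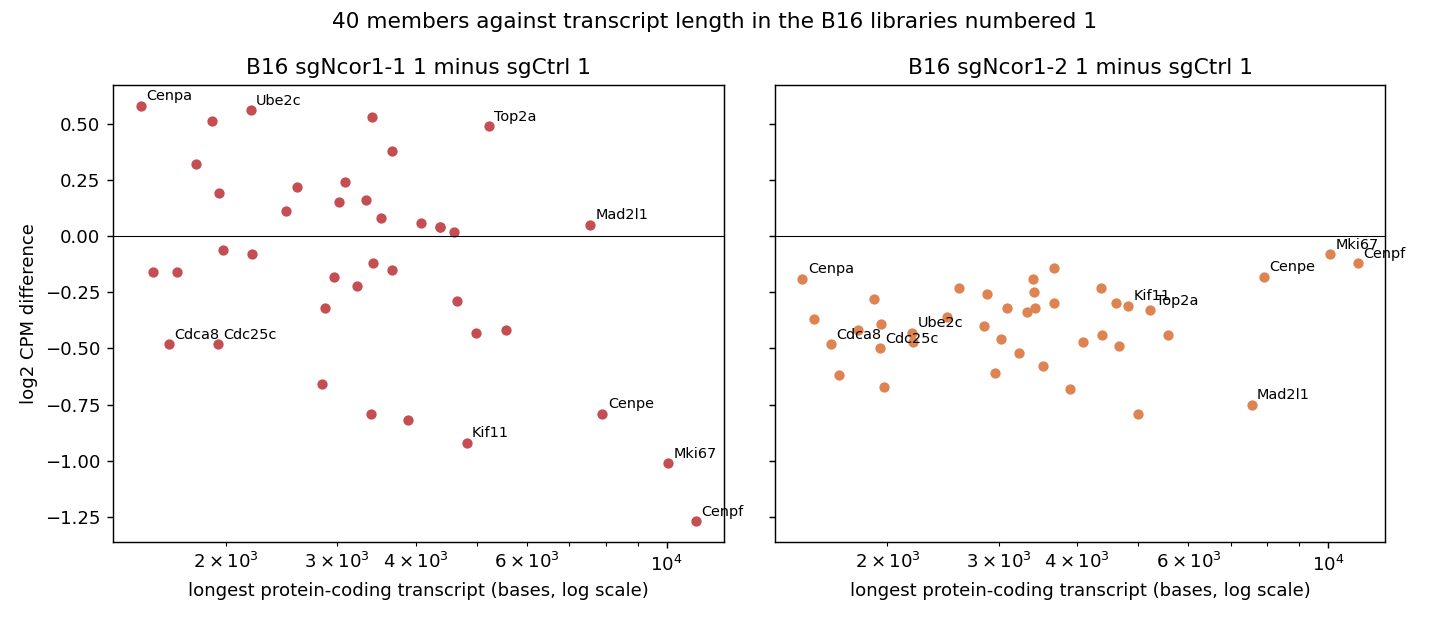
Log2 CPM difference of the 40 genes (vertical axis) against the length of the longest protein-coding transcript in bases (horizontal, log scale), for the B16 libraries sgNcor1-1 1 (left) and sgNcor1-2 1 (right), each minus sgCtrl 1. Cenpf at -1.27 and Mki67 at -1.01 lie lowest on the left, and on the right no gene is above 0.

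The difference of the knockout effect between the lines, Hepa1-6 minus B16, was positive for all 40 genes, at a median of 0.98 on the log2 scale, and edgeR called 0 of the 40, beside 0.178% of all 14044 genes tested; DESeq2 also called 0. No median or share above 0 over all genes is given here for that difference, so its sign is not read as particular to the members. Before adjustment, 18 of the 40 had p under 0.05, or 45%, against 6.91% of the genes tested. The largest differences were those of Ccna2 at 1.74 (SE 0.78, edgeR adjusted p = 0.705) and Hmmr at 1.68 (SE 0.50, edgeR adjusted p = 0.388). Ccnb2 and Cdc25c were above the control in all 6 pairs of Hepa1-6 and below it in all 6 pairs of B16, with differences of 1.49 (SE 0.45, edgeR adjusted p = 0.395) and 1.27 (SE 0.37, edgeR adjusted p = 0.373). With the number as a block within each line, Cdc25c alone was called, at 1.27 (edgeR adjusted p = 0.0423), beside 1.68% of all genes; the numbers were not taken to pair the Hepa1-6 libraries. Without the libraries numbered 1 the median difference was 0.29, and 0 were called.

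The replicate number itself was tested within each line, beside the guide. In Hepa1-6, 1 of the 40 genes was called over all 9 libraries, beside 30.8% of all genes: Cdc25b, lower in number 1 than in numbers 2 and 3 (log2 differences 0.75 and 0.78 from number 1, edgeR adjusted p = 0.0138). DESeq2's likelihood ratio test called 9, beside 22.2% of its genes. In the 6 knockout libraries alone, an alternative added after the data were seen, all 40 were called, beside 72.7% of all genes, and 37 were lower in both numbers 2 and 3 than in number 1. The exceptions were Cdc25b, Cdc25c and Pttg1. Over the 40, the median was -1.09 for number 2 and -1.43 for number 3, against -0.01 for each over all 12399 genes. Of all genes, 6245 were lower in number 2 than in number 1, and 6255 in number 3. The controls ran the other way: among the 3 control libraries, the lowest was number 1 for 38 of the 40 genes and the highest was number 3 for 36. The same orders were not counted over all genes. Between numbers 2 and 1 of the knockout libraries, the role medians ran from -1.54 in the kinesins to -0.67 in the centromere genes. Foxm1 was at -1.4, the mitotic chromosome genes at -1.31 and the CDK1 engine at -1.23. The cytokinesis genes were at -1.19, the chromosomal passenger genes at -1.17 and the checkpoint genes at -1. The partners and substrates of the anaphase-promoting complex were at -0.79, the spindle genes at -0.74 and the mitotic kinases at -0.71.

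In B16, 23 of the 40 genes were called over the 9 libraries, beside 30.2% of all genes. Of the 40, 39 were lower in number 3 than in number 1, at a median of -0.52. Over all genes, 5938 of 12347 were lower, at a median of 0.02. Of the 23, 22 were lower in number 3 than in number 1. The exception was Pttg1, higher in number 3 by 0.84 (edgeR adjusted p = 0.0118), at 38.14 CPM in sgNcor1-1 3 and 37.58 CPM in sgNcor1-2 3, against 38.53 CPM in sgCtrl 3, and 16.51 to 25.44 CPM in the other 6 libraries. Kif4 had the smallest p of the 40, with log2 differences of -0.82 for number 2 and -1.34 for number 3 from number 1 (edgeR adjusted p = 0.00363). By role, the calls took in 6 of 6 CDK1 engine genes, 3 of 3 mitotic kinases, 2 of 2 cytokinesis genes and 3 of 5 spindle genes, and 0 of 3 chromosomal passenger genes. Ckap2 had -0.97 and -0.58 (edgeR adjusted p = 0.00468), Anln -0.68 and -0.90 (adjusted p = 0.00666), Nusap1, which bundles microtubules, -0.90 and -0.89 (adjusted p = 0.00979), Prc1, which bundles the midzone, -0.59 and -0.84 (adjusted p = 0.0143), and Ect2, the activator of RhoA in cytokinesis, -0.68 and -0.71 (adjusted p = 0.0155). Foxm1 and Mki67 were higher in number 2 than in number 1, by 0.49 and 0.38, and lower in number 3, by -0.33 and -0.52. DESeq2 called 29, beside 36.4% of its genes. In the 6 knockout libraries of B16 alone, 0 were called, beside 3.99% of all genes. The labels do not say what a replicate number stands for, so a batch, a culture and its density cannot be told apart.

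**Figure D4:**
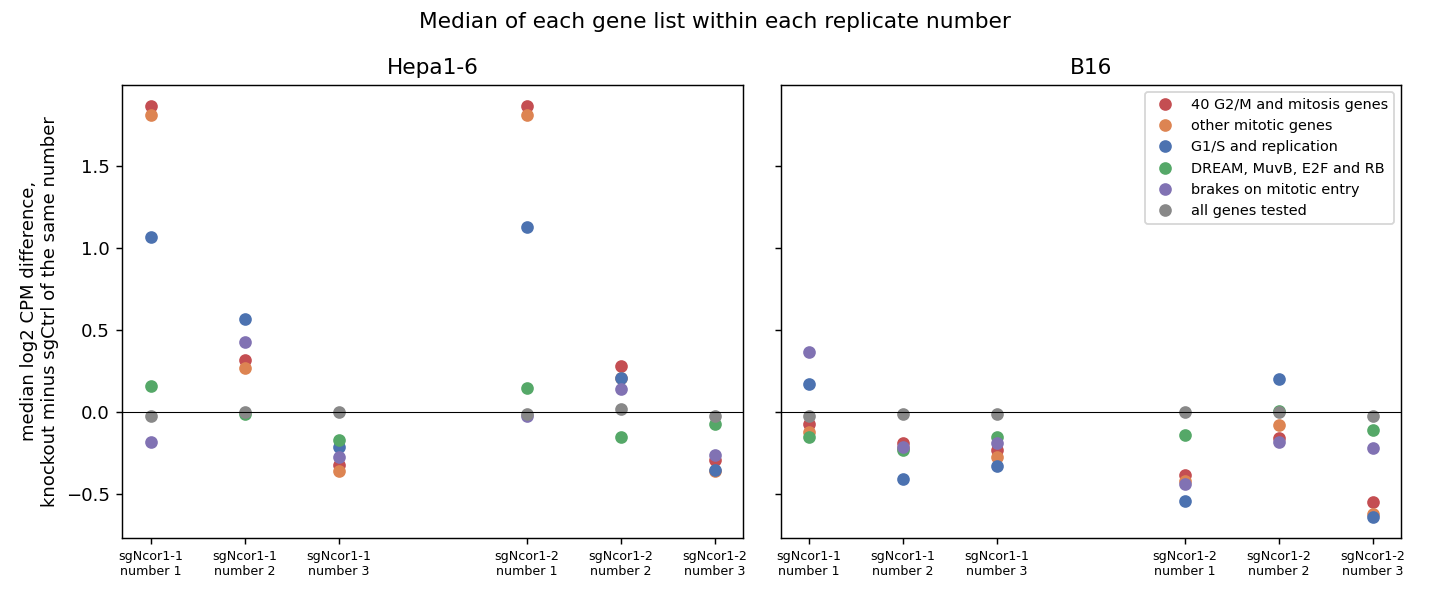
Median log2 CPM difference between each knockout library and the sgCtrl library of the same replicate number (vertical axis) for 6 gene lists, in Hepa1-6 (left) and B16 (right), by guide and number. In Hepa1-6 the 40 genes and the other mitotic genes stand at 1.87 and 1.81 in number 1 with both guides, and below 0 in number 3. Grey points give the median over all genes tested.

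The rest of the pathway was read from lists outside the 40. Of 40 other mitotic genes, 39 averaged higher in the Hepa1-6 knockout, at a median of 0.64, and 0 were called; within number 1 their median was 1.81 with both guides and within number 3 it was -0.36 with both. Of 31 G1/S and replication genes, 31 were above 0, at a median of 0.51, and 0 were called. Their median within number 1 was 1.07 with sgNcor1-1 and 1.13 with sgNcor1-2. The genes that govern the waves gave a median of 0.08 over 21 DREAM, MuvB, E2F and RB genes (12 above 0, 0 called). Among them E2f1, an activator of the G1/S wave, had 90.07, 84.49 and 58.91 CPM in sgNcor1-1 and 89.7, 82.05 and 65.22 CPM in sgNcor1-2, against 48.61, 41.1 and 51.07 CPM in sgCtrl. All 6 knockout libraries were above all 3 controls (log2 fold change 0.74, SE 0.19, edgeR adjusted p = 0.192). Mybl2, the partner of MuvB in S and G2, had a log2 fold change of 0.88 (SE 0.37, edgeR adjusted p = 0.426), and Rb1 of -0.51 (SE 0.18, edgeR adjusted p = 0.331).

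The 13 measured brakes on entry into mitosis had a median of 0.05 in Hepa1-6. Gadd45b, a stress-induced inhibitor of CDK1 activity, had 8.093, 10.68 and 19.13 CPM in sgNcor1-1 and 10.44, 11.33 and 13.06 CPM in sgNcor1-2, against 19.08, 25.93 and 21.83 CPM in sgCtrl (log2 fold change -0.88, SE 0.27, edgeR adjusted p = 0.276). The 17 subunits and inhibitors of the anaphase-promoting complex had a median of 0.18, and Ube2s, which extends its ubiquitin chains, one of 0.69 (SE 0.22, edgeR adjusted p = 0.297). In B16 the other mitotic genes had a median of -0.26 and the G1/S genes one of -0.22, with 0 called in either list; Kif22, a chromosome-arm kinesin, had the smallest p there (log2 fold change -0.43, SE 0.16, edgeR adjusted p = 1). Within numbers, the G1/S median was above 0 in 2 of the 6 B16 pairs, at 0.17 in sgNcor1-1 1 and 0.20 in sgNcor1-2 2, where the 40 mitotic genes stood at -0.07 and -0.16.

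Between the control libraries, 22 of the 40 genes were called, Hepa1-6 against B16, beside 59.4% of all genes: 2 were higher in Hepa1-6 and 20 lower, beside 29.6% and 29.8% of all genes. The median difference was -1.03 on the log2 scale. Ccnb2 was at 13.68, 17.91 and 24.68 CPM in Hepa1-6, against 140.1, 115.9 and 109.1 CPM in B16, on a scale common to both lines, and the groups were far apart (log2 difference -2.70, SE 0.39, edgeR adjusted p = 1.85e-05). Cdca3 was at 18.5, 37.49 and 39.8 CPM in Hepa1-6, against 181.4, 179.1 and 142.7 CPM in B16 (log2 difference -2.39, SE 0.51, edgeR adjusted p = 0.00077). Pttg1 was the reverse, at 51.11, 120 and 105.9 CPM in Hepa1-6, against 25.38, 22.88 and 38.27 CPM in B16 (log2 difference 1.68, SE 0.36, edgeR adjusted p = 0.000841), and Cdc25b the other gene higher in Hepa1-6 (0.94, SE 0.36, edgeR adjusted p = 0.0347). Bub3, Ube2c, Cdk1 and Aurka differed by 0.36, 0.23, -0.10 and -0.09, and none of them was called. Each line may have been grown and sequenced apart, so line and batch cannot be told apart. Without the Hepa1-6 libraries numbered 1, 22 were called, beside 59% of all genes, and the median was -0.77. With numbers 2 and 3 only in both lines the median was -0.64.

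**Figure D5:**
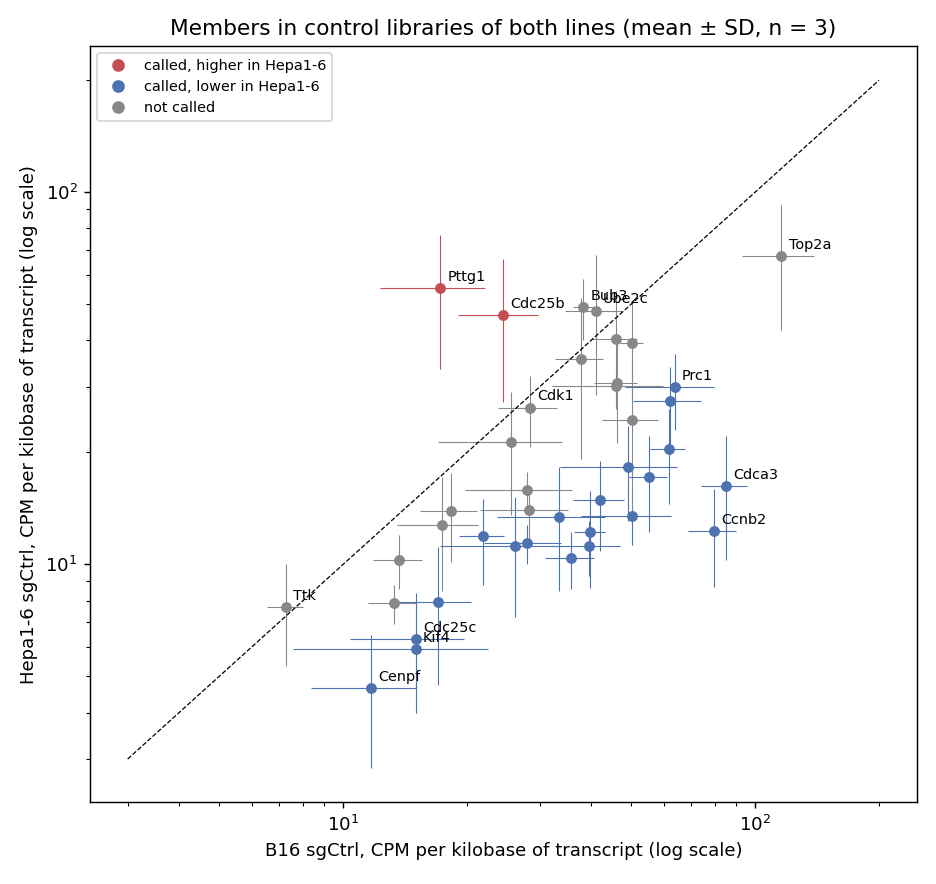
Mean CPM per kilobase of the longest protein-coding transcript in the sgCtrl libraries of Hepa1-6 (vertical) and B16 (horizontal), both log scales, for the 40 genes; whiskers are SD (n = 3) and the dashed line marks equal levels. Ccnb2 and Cdca3 lie farthest below the line, and Pttg1 farthest above it.

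Per kilobase of transcript, Top2a had the highest control level of the 40 in both lines, 67.5 CPM per kilobase in Hepa1-6 and 116 in B16. In Hepa1-6 it was followed by Pttg1 at 55.2 and Bub3 at 49.2 CPM per kilobase, which did not differ beyond their spread, and Cenpf at 4.65 and Kif4 at 5.91 were the lowest. In B16, Cdca3 at 84.9 and Ccnb2 at 79.5 CPM per kilobase followed, close to each other, and Ttk at 7.25 was the lowest. Ccnb2 itself was at 12.3 CPM per kilobase in Hepa1-6.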

How the data were processed

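PolyA RNA was sequenced in 18 libraries. The submitters' processing notes name FastQC 0.12.1, Trim Galore 0.6.7, Bowtie2 2.2.5 with the mm10 build, and RSEM 1.2.8; per the series' design text these served quality control, trimming, alignment and counting in that order. The authors deposited 1 table of RSEM expected counts per line, as estimated counts per gene symbol. Of the values, 7.87% in Hepa1-6 and 7.19% in B16 were not whole, as RSEM shares ambiguous reads among genes, and were rounded here.

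Groups came from the library labels. In R 4.3.3, edgeR 4.0.16 quasi-likelihood fits (robust, TMM scaling, filterByExpr) were run per line over 3 groups, with Benjamini-Hochberg adjustment over all genes tested and an adjusted p under 0.05 as the call. CPM use a prior count of 2 where a log2 difference is given. Hepa1-6 and B16 were joined in 1 fit of the counts for line dependence and controls. The replicate number was tested by an F test beside group. DESeq2 1.42.0 and limma 3.58.1 (voom) were alternatives. The fits within each line were tested on simulated data.

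The labels give every group the numbers 1 to 3. The numbers were taken to pair libraries where every same-numbered pair of deviations from the group means correlated over 0.1: B16 correlations were 0.50 to 0.74, while Hepa1-6 gave 0.05 for sgNcor1-1 and sgCtrl number 2 and 0.19 to 0.91 otherwise, so its numbers were not taken to pair. Genes named are the 6 members with the smallest knockout p per line, members called for replicate number, the leading gene of each role, and exceptions named after their values were seen. Members and lists were chosen with earlier results of these data known. Transcript lengths are of GENCODE's longest protein-coding transcript. Of 227 list entries, 7 matched under a newer name and 7 were not found.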

Additional observations from a re-analysis of the deposited data

Results flagged for a closer look

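Ccnb2 and Cdc25c were picked out by the signs of their pairs. For both, every Hepa1-6 knockout library was above the control of its replicate number and every B16 knockout library was below it. These signs were the rule of choice, so they lend the genes no further weight. In Hepa1-6, 3 of 40 members were above in all 6 pairs, beside 11.2% of all genes. In B16, 12 of 40 were below in all 6, beside 6.91%. The 6 pairs of a line share 3 controls. The knockout effect on Ccnb2, Hepa1-6 minus B16, was 1.49 on the log2 scale (higher in 6 of 6 Hepa1-6 pairs, lower in 6 of 6 B16 pairs, edgeR adjusted p of the difference = 0.395). For Cdc25c it was 1.27 (likewise 6 of 6 and 6 of 6, edgeR adjusted p = 0.373, and 0.0423 with the replicate number as a block within line). In the test of the difference itself neither passed the threshold without the block.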

How the results depend on the processing

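With the replicate number as a block, the Hepa1-6 members called remained 0 and the median was 0.51. In B16 the members called were 0 as well. Between the lines the block gave 1 member called, Cdc25c, beside 1.68% of all genes. Beyond the members, the Hepa1-6 block took E2f1 to an adjusted p of 0.0394 and Gadd45b to 0.0398. It changed no other call of a member or listed gene named in the text for a knockout comparison. For Ncor1 no value with the block is given. The blocked B16 fit without sgNcor1-1 replicate 1 called 4. For the replicate numbers, DESeq2 called 9 members in Hepa1-6, and the 6 knockout libraries alone gave 40 in Hepa1-6 and 0 in B16; the cause was not tested. Leaving out each library in turn gave 0 members called in every knockout comparison, and medians of 0.46 to 0.92 in Hepa1-6 (0.18 to 0.99 for sgNcor1-1, 0.20 to 1.02 for sgNcor1-2) and of -0.36 to -0.13 in B16 (-0.35 to -0.01 for sgNcor1-1, -0.48 to -0.19 for sgNcor1-2). The lowest Hepa1-6 median came without sgNcor1-1 1, and with numbers 2 and 3 only it was -0.01. Genes called over the whole table moved more: from 25 in Hepa1-6 to 287 with DESeq2, 525 with the block and 6 to 19 with a library left out, and from 4 in B16 to 48 with DESeq2, 9 with limma-voom, 17 with no filter, 48 with the block, 339 with the block and sgNcor1-1 1 left out, 0 with numbers 2 and 3 only, and 1 to 3 with a library left out. Control Hepa1-6 against control B16 gave 17 to 23 members called over its alternatives. The main fit called 59.4% of all genes, and the fit without the Hepa1-6 libraries numbered 1 called 59%. The median between the control groups was -0.64 with numbers 2 and 3 only. Other scaling, tests and filters moved no direction of a member list. The fits on the 6 knockout libraries, the blocked B16 fit and the replicate-number fit without sgNcor1-1 1, and the control comparison without the Hepa1-6 libraries numbered 1 were chosen after seeing the data.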
